A study of Vitis vinifera with 60 samples.

Results

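Of 29287 rows of a grape berry expression table, 10 hold the genes described here, which belong to carotenoid synthesis, carotenoid cleavage and the step towards abscisic acid. They were chosen by identifier: 3 phytoene synthases (PSY), phytoene desaturase (PDS), zeta-carotene desaturase (ZDS), carotenoid cleavage dioxygenase 1 (CCD1), a pair of carotenoid cleavage dioxygenases 4 (CCD4) and a pair of 9-cis-epoxycarotenoid dioxygenases (NCED). The gene names came with that choice, since the table holds identifiers only. All 10 rows were found, and all 10 reached the minimum of 1 FPKM in at least 1 column, although the chromosome 6 PSY did so in only 2 columns.

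RNA came from berry pericarp, here whole berries with the seeds removed, of the white Vitis vinifera cultivars Garganega, Glera, Moscato bianco, Passerina and Vermentino, grown in 1 vineyard in 2011. Berries were pea-sized (Pea), beginning to touch (Touch), soft (Soft) or ripe for harvest (Harv), which gives 20 groups with no treatment. The labels give 3 libraries for each group, and the table holds the authors' mean FPKM (fragments per kilobase of transcript, scaled to the mapped fragments of the library) for each. No error between libraries can therefore be given, and each mean ± SD given here is over the 5 cultivars. How many vines or berries went into a library is not given in the labels, and the tissue was not checked against marker genes here because the rows have no names. In such bulk tissue, fewer cells of a type and less RNA per cell cannot be told apart.

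Carotenoids are plastid pigments. Phytoene synthase makes phytoene, the first carotenoid and the committed step of the pathway, and PDS and then ZDS introduce double bonds on the way to lycopene. CCD1, which is found in the cytosol, and the plastid CCD4 cut carotenoids into apocarotenoids, among them aroma compounds of grape such as beta-ionone. NCED cuts epoxycarotenoids to xanthoxin, the precursor of abscisic acid, a hormone known for its rise at the onset of grape ripening.

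The 10 genes split across ripening. Both CCD4 genes and ZDS rose from the green stages to the ripe stages, and the chromosome 4 PSY and the chromosome 19 NCED fell. In that comparison 4.77% of all rows rose and 21.3% fell, and the other 5 genes did not reach the limits of a call. The chromosome 10 NCED, among those 5, was called lower from Pea to Touch and from Soft to Harv. Among the single steps CCD4 g00910 was called only from Soft to Harv, with a log2 change of -0.35 from Touch to Soft. Its call from green to ripe held in 12 of 14 alternatives. Most phytoene synthase RNA came from the chromosome 4 gene at the green stages and from the chromosome 12 gene at the ripe stages, in all 5 cultivars. The row of CCD1, which it shares with a neighbouring identifier, spanned 4.10-fold to 64.0-fold between cultivars within a stage. None of its 4 stage comparisons was called (limma).

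**Figure D1:**
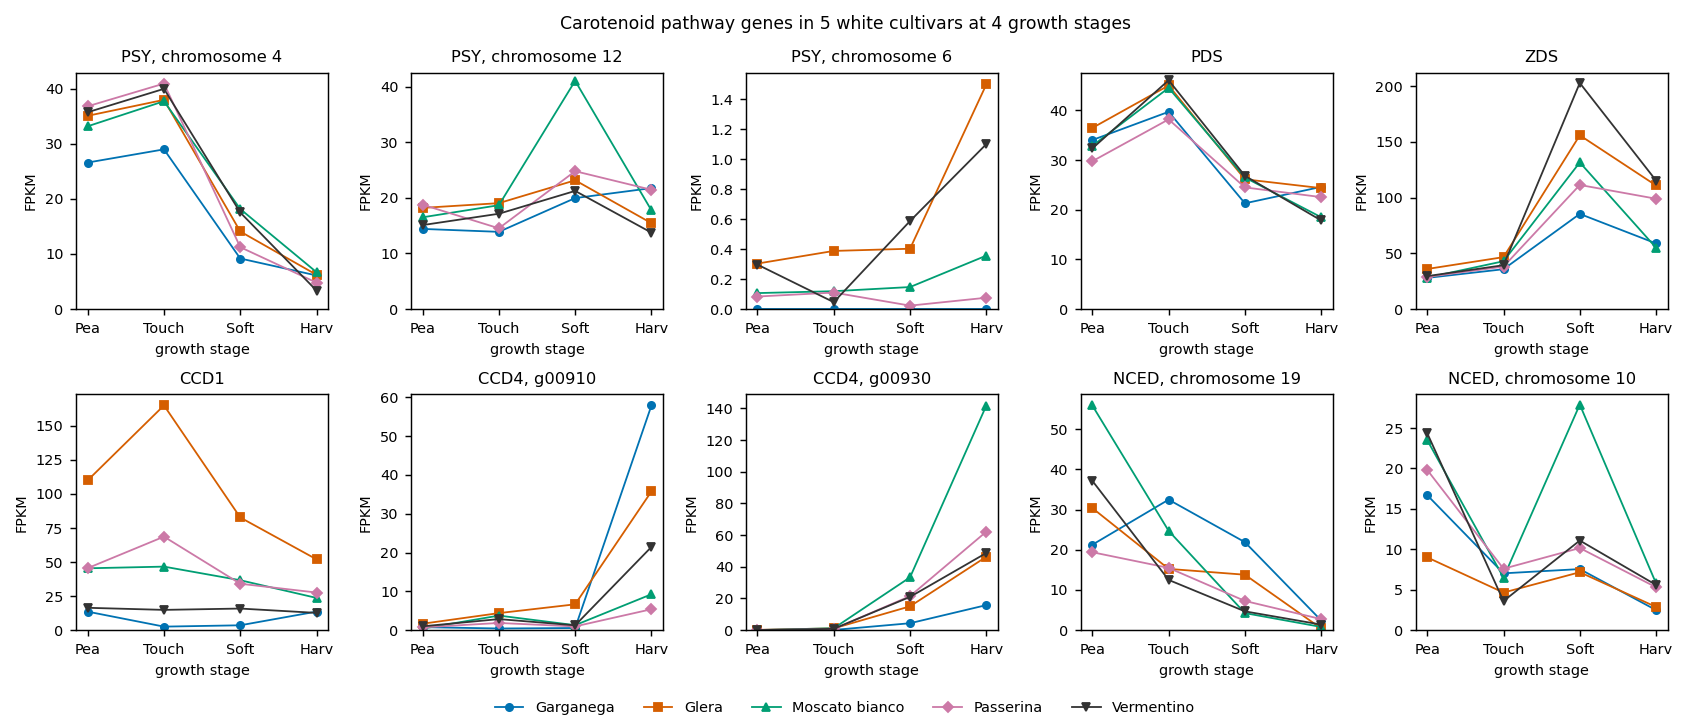
FPKM (vertical axes, each from 0 and with its own range) of the 10 genes at the 4 growth stages (horizontal axes), with 1 line and marker for each cultivar and each point an authors' mean. The chromosome 4 PSY and PDS are highest at Touch, ZDS is highest at Soft, and both CCD4 genes are highest at Harv, in all 5 cultivars.

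Each stage was compared with the next, and the mean of Soft and Harv (ripe) with the mean of Pea and Touch (green), with limma over 20833 rows on the scale log2(FPKM + 1). The cultivar served as the replicate. A call needed an adjusted p (Benjamini-Hochberg, over all rows) below 0.05 together with a change of at least 2-fold on that scale, which understates the fold of low values. From Pea to Touch 1 of the 10 genes fell and 0 rose, while 5.77% of all rows fell and 2.14% rose (7.91% in either direction). From Touch to Soft 2 genes rose and 2 fell, against 3.59% and 15.2% of all rows (18.8% in either direction). From Soft to Harv 2 rose and 3 fell, against 2.05% and 5.15% (7.2% in either direction). From green to ripe 3 rose and 2 fell, against 4.77% and 21.3% (26% in either direction). At an adjusted p under 0.05 with no limit on size, 1 of the 10 genes was higher and 1 lower from Pea to Touch, where 16.7% of all rows were higher and 16.1% lower. From Touch to Soft 4 were higher and 3 lower, against 9.71% and 50.3%, and from Soft to Harv 2 were higher and 5 lower, against 16.7% and 19.6%. From green to ripe 5 were higher and 4 lower, against 19.2% and 57.9%. The median change of the 10 genes was 0.07, -0.12, -0.35 and -0.12 in these comparisons in turn, and that of all rows was 0.02, -0.31, -0.02 and -0.34.

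The step from Touch to Soft depended on how columns were scaled. With columns scaled to equal medians the median change of all rows was 0.07, and 4 of the 10 genes rose and 0 fell, against 6.71% and 8.45% of all rows. Quantile normalization gave 3 rising and 0 falling genes. From green to ripe the split of the 10 genes was 3 and 2 under every scaling tried, while that of all rows went from 994 rising and 4431 falling rows as deposited to 2262 and 2710 with equal medians. Ratios of genes within a column do not depend on the scale and are given beside the changes.

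**Figure D2:**
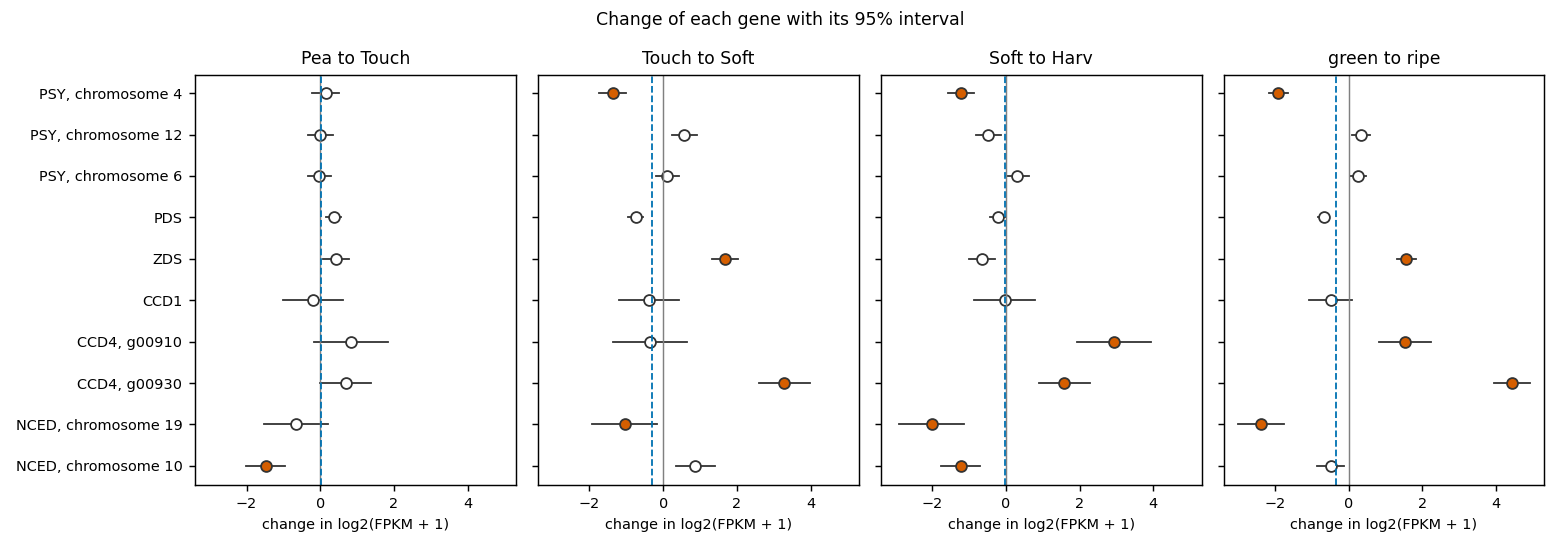
Change in log2(FPKM + 1) (horizontal axes) of the 10 genes (vertical axis) in the 4 comparisons, with 95% intervals from limma. Filled points passed the adjusted p and the 2-fold limit, the grey line marks 0, and the dashed line marks the median change of all 20833 rows, which was -0.31 from Touch to Soft.

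Phytoene synthase is encoded by several genes in grape, as in many plants. VIT_04s0079g00680, whose identifier places it on chromosome 4, stood at 26.6 FPKM in Garganega, 33.2 in Moscato bianco, 35.1 in Glera, 35.7 in Vermentino and 36.8 in Passerina at Pea. At Touch it stood at 29.0, 37.7, 38.0, 39.99 and 40.9 FPKM in the same order of cultivars. Each cultivar was slightly higher at Touch than at Pea, and the ranges of the stages overlapped. At Soft the values were 9.18 FPKM in Garganega, 11.2 in Passerina, 14.1 in Glera, 17.5 in Vermentino and 18.2 in Moscato bianco. At Harv they were 3.34 FPKM in Vermentino, 4.79 in Passerina, 6.09 in Garganega, 6.21 in Glera and 6.69 in Moscato bianco. Neither Touch and Soft nor Soft and Harv overlapped, and every cultivar was lower at each of these steps. The share of all rows without overlap at a step was not counted, here or for the genes below.

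The fall of the chromosome 4 PSY from green to ripe was 1.91 on the log2 scale (log2 change -1.91, SE 0.12, limma adjusted p = 1.62e-09), lower in 5 of 5 cultivars. It fell from Touch to Soft by 1.37 (SE 0.17, adjusted p = 7.33e-06), which is -1.06 relative to the median of all rows. That call was lost with equal medians (log2 change -0.86, adjusted p = 0.000766) and with quantile normalization (log2 change -0.998, adjusted p = 0.00012), where the change lay just under 2-fold. From Soft to Harv it fell by 1.22 (SE 0.17, adjusted p = 0.000103). Without Vermentino, the cultivar with the steepest fall at that step, the change was -0.995 and again just under the 2-fold limit (adjusted p = 0.000917). Over the whole course from Pea to Harv, FPKM ended lower 4.37-fold in Garganega, 4.96-fold in Moscato bianco, 5.65-fold in Glera, 7.69-fold in Passerina and 10.7-fold in Vermentino.

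The second synthase, VIT_12s0028g00960 on chromosome 12, moved within a much narrower range. It stood between 14.4 FPKM in Garganega and 18.8 in Passerina at Pea, and between 13.9 in Garganega and 19.1 in Glera at Touch. The values at Soft were 19.96 FPKM in Garganega, 21.3 in Vermentino, 23.2 in Glera, 24.8 in Passerina and 41.1 in Moscato bianco. All 5 cultivars were higher at Soft than any was at Touch, and Moscato bianco stood 1.66-fold above the next cultivar. At Harv the values ran from 13.7 FPKM in Vermentino to 21.8 in Garganega, and Garganega alone was higher than at Soft (log2 change over the cultivars -0.48, adjusted p = 0.0285, under the 2-fold limit). The log2 change from Touch to Soft was 0.58 (SE 0.16, 95% interval 0.24 to 0.92, adjusted p = 0.00573), which passed the adjusted p but not the 2-fold limit. With equal medians the change was 1.09 (adjusted p = 4.5e-05), a call.

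Which of these synthases held more of the RNA differed between green and ripe berries. The chromosome 4 gene held 66.6% ± 2.0 (SD, n = 5 cultivars) of the summed PSY FPKM at Pea and 68.8% ± 3.1 at Touch. It then held 35.0% ± 6.0 at Soft and 22.5% ± 4.3 at Harv. Its ratio to the chromosome 12 gene lay between 1.85 and 2.37 at Pea and between 1.99 and 2.82 at Touch, and so above 1 in all 5 cultivars. At Soft it lay between 0.442 in Moscato bianco and 0.825 in Vermentino, and at Harv between 0.223 in Passerina and 0.402 in Glera. From Touch to Soft the mean log2 change of the ratio was -2.05 ± 0.45 (SD), lower in 5 of 5 cultivars. An exact two-sided sign-flip permutation test over the 5 cultivars gave p = 0.0625, the smallest that 5 cultivars allow, and 0.0769 after Benjamini-Hochberg adjustment over 16 such ratio changes (4 gene pairs, 4 pairs of stages). Of these 16 changes, 13 had the same direction in all 5 cultivars, which gives that smallest p. The ratio tests here and below were added after the values were seen. Summed PSY FPKM went from 50.2 ± 5.6 at Pea and 53.9 ± 6.2 at Touch to 40.3 ± 11.3 at Soft and 24.1 ± 3.7 at Harv. Unlike the ratio, this sum depends on the scale of the columns. The median FPKM of all rows tested was 10.7 to 11.3 at Pea and 10.2 to 11.1 at Touch, depending on the cultivar. It was 7.15 to 7.71 at Soft and 6.51 to 7.18 at Harv.

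The third synthase, VIT_06s0004g00820 on chromosome 6, was close to the lower end of the table. In Garganega all 4 of its values were listed at 0, in Passerina they ran from 0.0227 to 0.110 FPKM, and in Moscato bianco from 0.106 to 0.356. Only Glera (1.498 FPKM) and Vermentino (1.10 FPKM) exceeded 1 FPKM, both at Harv. The gene held at most 6.47% of the summed PSY FPKM in any column. It was not called in any comparison. Its log2 change from green to ripe was 0.25 (SE 0.10, adjusted p = 0.0419), higher in 3 and lower in 1 of 5 cultivars and listed at 0 throughout in Garganega.

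**Figure D3:**
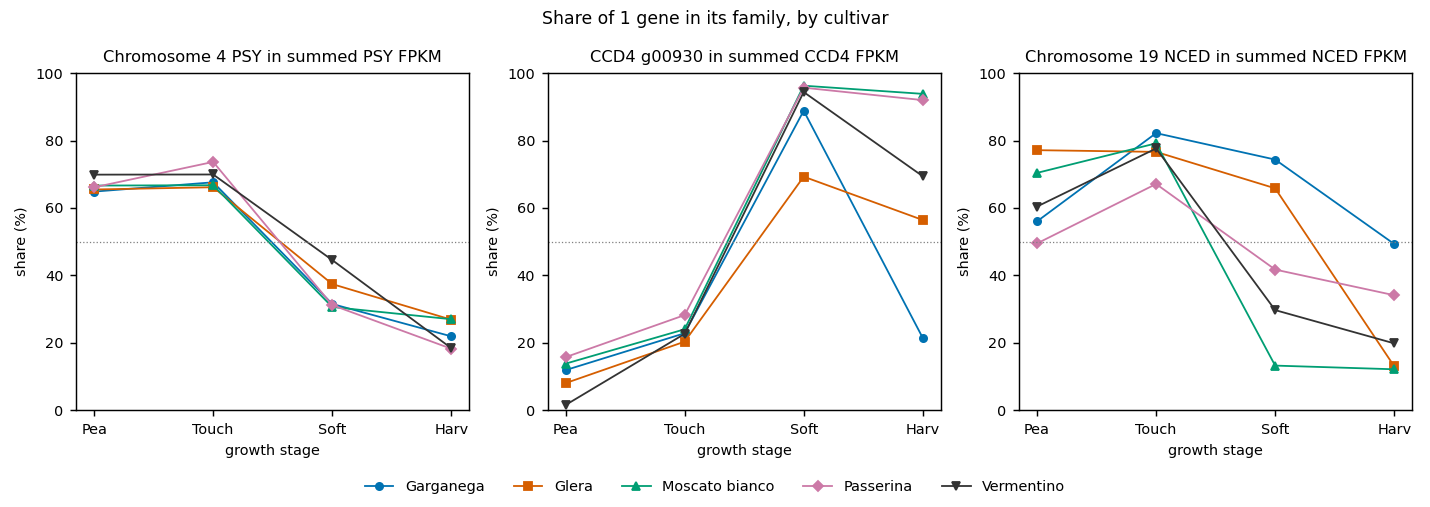
Share in percent (vertical axes, 0 to 100) of the chromosome 4 PSY in summed PSY FPKM, of CCD4 g00930 in summed CCD4 FPKM and of the chromosome 19 NCED in summed NCED FPKM at the 4 stages (horizontal axes), with 1 line for each cultivar and a dotted line at 50%. The PSY share lies above 50% at Pea and Touch and below it at Soft and Harv in all 5 cultivars, and at Harv the CCD4 share is 21.4% in Garganega and 93.9% in Moscato bianco.

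The desaturases, which act one after the other, stood at similar levels in green berries and apart in soft berries. PDS, VIT_09s0002g00100, was the most even of the 10 genes across cultivars at Pea, with a coefficient of variation of 7.40%. It stood between 29.8 FPKM in Passerina and 36.5 in Glera at Pea and between 38.2 in Passerina and 46.1 in Vermentino at Touch. At Soft it stood between 21.3 FPKM in Garganega and 26.8 in Vermentino, and at Harv between 17.8 in Vermentino and 24.6 in Garganega. Touch overlapped neither with Pea nor with Soft, so that PDS was highest at Touch in all 5 cultivars.

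None of the PDS changes reached 2-fold. PDS was higher at Touch than at Pea by 0.36 (SE 0.10, adjusted p = 0.0104) and lower at Soft than at Touch by 0.75 (log2 change -0.75, SE 0.10, adjusted p = 1.23e-05), in 5 of 5 cultivars each time. Relative to the median of all rows the second change was -0.43. With columns scaled to equal medians it was -0.22 (limma adjusted p = 0.0684), and with quantile normalization -0.42 (adjusted p = 0.00171). From green to ripe PDS changed by -0.68 (adjusted p = 3.2e-07). That change was -0.086 with equal medians (adjusted p = 0.266) and -0.34 with quantile normalization (adjusted p = 0.000281). From Soft to Harv the log2 change was -0.21 (SE 0.10, adjusted p = 0.0958), lower in 4 cultivars and higher in Garganega.

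ZDS, VIT_14s0030g01740, shares its row with VIT_14s0030g01730, so their fragments are not separated. The row stood at 28.0 FPKM in Garganega, 28.2 in Moscato bianco, 28.8 in Passerina, 29.6 in Vermentino and 36.0 in Glera at Pea, and between 35.7 in Garganega and 46.6 in Glera at Touch. At Soft the values were 85.4 FPKM in Garganega, 111 in Passerina, 132 in Moscato bianco and 156 in Glera, with the highest, 203 FPKM, in Vermentino. The lowest cultivar at Soft stood above the highest at Touch. At Harv the values were 54.98 FPKM in Moscato bianco, 58.9 in Garganega, 99.0 in Passerina, 111 in Glera and 115 in Vermentino, each below its own value at Soft.

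ZDS rose from Touch to Soft by 1.68 (SE 0.17, adjusted p = 1.11e-06), higher in 5 of 5 cultivars, a change above that of 98.1% of all rows tested. The FPKM went up 2.39-fold in Garganega, 2.92-fold in Passerina, 3.07-fold in Moscato bianco, 3.35-fold in Glera and 5.16-fold in Vermentino. From green to ripe it rose by 1.57 (SE 0.12, adjusted p = 1.34e-08). Both calls held in every alternative tried. The log2 change from Soft to Harv was -0.65 (SE 0.17, adjusted p = 0.00758), past the adjusted p and under the 2-fold limit.

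Set against PDS in the same column, ZDS stood at 0.822 to 0.986 times the PDS level at Pea and 0.854 to 1.04 times at Touch. At Soft it stood at 4.01 times in Garganega, 4.55 times in Passerina, 4.97 times in Moscato bianco, 5.97 times in Glera and 7.57 times in Vermentino. From Touch to Soft the mean log2 change of the ratio was 2.48 ± 0.40 (SD), higher in 5 of 5 cultivars (exact sign-flip permutation test p = 0.0625, adjusted 0.0769). At Harv the ratio was 2.39 to 6.47, lower than at Soft in each cultivar.

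The 2 CCD4 genes lie close together by identifier on chromosome 2, and both ended highest at Harv in all 5 cultivars, with different timing. VIT_02s0087g00930, called CCD4 g00930 here, stood at 0.0150 FPKM in Vermentino, 0.0638 in Moscato bianco, 0.104 in Garganega, 0.134 in Passerina and 0.143 in Glera at Pea. At Touch it stood at 0.125 FPKM in Garganega, 0.726 in Passerina, 0.832 in Vermentino, 1.12 in Glera and 1.18 in Moscato bianco. These levels are near the lower end of the table. By Soft it had reached 4.36 FPKM in Garganega, 15.0 in Glera, 21.0 in Vermentino, 21.5 in Passerina and 33.3 in Moscato bianco. At Harv the values were 15.8 FPKM in Garganega, 46.3 in Glera, 48.7 in Vermentino, 62.2 in Passerina and 142 in Moscato bianco. The order of cultivars was the same at both ripe stages, with Garganega lowest and Moscato bianco highest.

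CCD4 g00930 rose from Touch to Soft by 3.29 (SE 0.33, adjusted p = 1.08e-06), a change above that of 99.4% of all rows. From green to ripe it rose by 4.42 (SE 0.23, adjusted p = 2.71e-10), the largest change of the 10 genes in that comparison and a call in every alternative tried. Its FPKM went up 13.4-fold in Glera, 25.2-fold in Vermentino, 28.2-fold in Moscato bianco, 29.6-fold in Passerina and 34.9-fold in Garganega from Touch to Soft. It rose again from Soft to Harv by 1.59 (SE 0.33, adjusted p = 0.00174), between 2.32-fold in Vermentino and 4.25-fold in Moscato bianco. The log2 change from Pea to Touch was 0.68 (SE 0.33, adjusted p = 0.124), higher in 5 of 5 cultivars. With a pseudocount of 0.1, which gives low levels more weight, that change was 2.05 (adjusted p = 0.00118), a call.

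VIT_02s0087g00910, called CCD4 g00910 here, shares its row with VIT_02s0087g00920, and their fragments are not separated. Up to Soft it stayed low, between 0.400 FPKM in Moscato bianco and 1.65 in Glera at Pea and between 0.423 in Garganega and 4.39 in Glera at Touch. Its values at Soft were 0.546 FPKM in Garganega, 0.962 in Passerina, 1.24 in Vermentino, 1.28 in Moscato bianco and 6.66 in Glera. At Harv the values were 5.39 FPKM in Passerina, 9.25 in Moscato bianco, 21.5 in Vermentino, 35.8 in Glera and 57.9 in Garganega. Every cultivar was higher at Harv than at Soft, while the value of Glera at Soft lay within the range of Harv.

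The rise of CCD4 g00910 from Soft to Harv was 2.94 (SE 0.47, adjusted p = 0.000279), above the change of 99.9% of all rows. It was uneven, with 5.37-fold in Glera, 5.604-fold in Passerina, 7.22-fold in Moscato bianco, 17.3-fold in Vermentino and 106-fold in Garganega. The fold in Garganega starts from 0.546 FPKM, a level of little precision, and its change on the log2(FPKM + 1) scale was 5.25. From Touch to Soft the log2 change was -0.35 (SE 0.47, 95% interval -1.35 to 0.65, adjusted p = 0.541), higher in 2 cultivars and lower in 3, and with quantile normalization it was 0.14. From Pea to Touch it was 0.83 (SE 0.47, adjusted p = 0.194), higher in 4 cultivars and lower in Garganega. Without Garganega that change was 1.12 (adjusted p = 0.023), a call. From green to ripe the gene rose by 1.54 (SE 0.33, adjusted p = 0.000638). That call held in 12 of 14 alternatives and was lost, for one, with a pseudocount of 5 (log2 change 0.98).

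At Harv the cultivars differed in which CCD4 gene they held most. CCD4 g00930 held 10.2% ± 5.6 of the summed CCD4 FPKM at Pea, 23.6% ± 2.9 at Touch and 88.9% ± 11.4 at Soft. At Harv it held 66.6% ± 29.8, with 21.4% in Garganega, 56.4% in Glera, 69.4% in Vermentino, 92.0% in Passerina and 93.9% in Moscato bianco. Garganega was thus lowest for g00930 and highest for g00910 at Harv. The ratio of g00930 to g00910 was higher at Soft than at Touch in 5 of 5 cultivars (log2 change 5.19 ± 1.28) and lower at Harv than at Soft in 5 of 5 (-2.06 ± 1.81), each with p = 0.0625 in the exact permutation test and 0.0769 after adjustment. Summed CCD4 FPKM at Harv ran from 67.6 to 151.

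Of the rows on either side of the CCD4 pair in identifier number, VIT_02s0087g00940 was listed at 0 in all 20 columns. VIT_02s0087g00890 had medians of 1.44 FPKM at Pea, 5.83 at Touch, 2.28 at Soft and 4.99 at Harv, and it was listed at 0 in at least 1 cultivar at Touch and at Soft. The medians of CCD4 g00910 at these stages were 0.774, 2.85, 1.24 and 21.5 FPKM, with the same order of steps and a higher end, and the difference between these rows was not tested.

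CCD1, VIT_13s0064g00810, shares its row with VIT_13s0064g00800, so their fragments are not separated. This shared row was set apart by cultivar. At Pea the row stood at 13.6 FPKM in Garganega, 16.4 in Vermentino, 45.4 in Moscato bianco, 45.5 in Passerina and 110 in Glera. At Touch it stood at 2.58 FPKM in Garganega, 14.9 in Vermentino, 46.6 in Moscato bianco, 68.7 in Passerina and 165 in Glera. Glera was highest at all 4 stages, by 2.42-fold over the next cultivar at Pea and by 1.88-fold at Harv. At Soft the values were 3.56 FPKM in Garganega, 15.9 in Vermentino, 34.1 in Passerina, 36.6 in Moscato bianco and 82.7 in Glera. At Harv they were 12.7 FPKM in Vermentino, 13.6 in Garganega, 23.7 in Moscato bianco, 27.6 in Passerina and 52.0 in Glera. Glera and the lowest cultivar were 64.0-fold apart at Touch and 4.10-fold apart at Harv. These differences between cultivars are given as a description and were not tested.

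No stage change of CCD1 was called. The log2 change from green to ripe was -0.49 (SE 0.27, 95% interval -1.07 to 0.09, adjusted p = 0.11), lower in 4 cultivars and higher in Garganega, and with equal medians it was 0.087. From Pea to Touch it was -0.19 (SE 0.38, adjusted p = 0.745), and 0.27 without Garganega, which stood 5.26-fold lower at Touch. Passerina and Glera were higher at Touch than at Pea by 0.58 each. From Soft to Harv the change was -0.04 (SE 0.38, adjusted p = 0.967), and Garganega alone was higher at Harv, by 1.68.

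**Figure D4:**
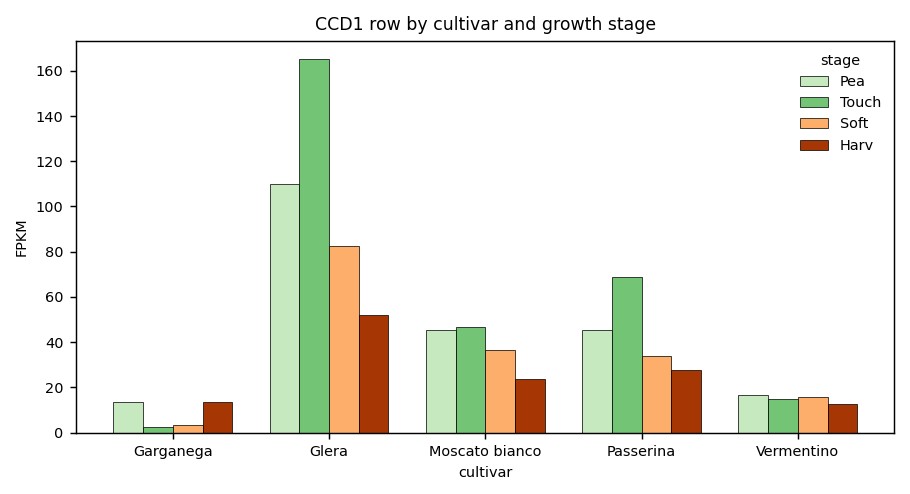
FPKM (vertical axis, from 0) of the row that holds CCD1, by cultivar (horizontal axis) and growth stage (bar colour), with each bar an authors' mean without an error. Glera is highest at every stage, with 165 FPKM at Touch, and Garganega is lowest at Touch and Soft, with 2.58 and 3.56 FPKM.

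Rows near CCD1 in identifier number were looked at after these values were seen, and they did not all order the cultivars alike. VIT_13s0064g00790 was lowest in Garganega at all 4 stages, like CCD1 at Pea, Touch and Soft, with 0.660 FPKM at Pea against 3.76 to 11.5 in the others. It was highest in Glera at Touch and Soft and in Moscato bianco at Pea and Harv. VIT_13s0064g00830 was lowest in Glera at all 4 stages, at 7.16 FPKM at Pea and 1.70 at Harv, where the other cultivars stood between 31.9 and 46.6 and between 13.8 and 17.9 FPKM. VIT_13s0064g00840 stood above the CCD1 row in all cultivars, at 164 to 206 FPKM at Pea. It was lowest in Glera at Soft (227 FPKM, others 346 to 442) and at Harv (161 FPKM, others 246 to 302). VIT_13s0064g00850 stood between 28.8 and 56.1 FPKM in all columns, and VIT_13s0064g00820 was listed at 0 in all of them. The table does not say what these genes encode.

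The 2 NCED genes were both lower at Harv than at Pea in all 5 cultivars, by different paths. VIT_19s0093g00550, on chromosome 19, stood at 19.4 FPKM in Passerina, 21.3 in Garganega, 30.4 in Glera, 37.2 in Vermentino and 55.9 in Moscato bianco at Pea. At Touch it stood at 12.5 FPKM in Vermentino, 15.3 in Glera, 15.5 in Passerina, 24.7 in Moscato bianco and 32.5 in Garganega. Garganega alone was higher at Touch than at Pea. At Soft the values were 4.24 FPKM in Moscato bianco, 4.68 in Vermentino, 7.27 in Passerina, 13.8 in Glera and 21.9 in Garganega. At Harv they were 0.429 FPKM in Glera, 0.796 in Moscato bianco, 1.38 in Vermentino, 2.41 in Garganega and 2.74 in Passerina. Pea, Touch and Soft overlapped, while every value at Harv lay below every value at Soft.

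The chromosome 19 NCED fell from green to ripe by 2.38 (log2 change -2.38, SE 0.29, adjusted p = 2.55e-06), lower in 5 of 5 cultivars and in every alternative tried. The fall from Soft to Harv was 2.01 (log2 change -2.01, SE 0.41, adjusted p = 0.00166), from 2.65-fold in Passerina to 32.2-fold in Glera. From Touch to Soft the log2 change was -1.05 (SE 0.41, adjusted p = 0.039), just inside a call, and lower in 5 of 5 cultivars. That call held in only 5 of 15 alternatives. It was lost without Vermentino (adjusted p = 0.0985), without Moscato bianco (log2 change -0.73, adjusted p = 0.15) and without Passerina (adjusted p = 0.078), and under all 3 other scalings. From Pea to Touch the change was -0.66 (SE 0.41, adjusted p = 0.239).

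VIT_10s0003g03750, the NCED on chromosome 10, was lower at Touch than at Pea, higher at Soft and lower again at Harv in 5 of 5 cultivars. At Pea it stood at 8.999 FPKM in Glera, 16.7 in Garganega, 19.8 in Passerina, 23.5 in Moscato bianco and 24.4 in Vermentino. At Touch it stood at 3.60 FPKM in Vermentino, 4.65 in Glera, 6.50 in Moscato bianco, 7.03 in Garganega and 7.60 in Passerina. Every value at Touch lay below every value at Pea. At Soft the values were 7.16 FPKM in Glera, 7.55 in Garganega, 10.2 in Passerina, 11.1 in Vermentino and 27.9 in Moscato bianco. At Harv they were 2.48 FPKM in Garganega, 2.87 in Glera, 5.30 in Passerina, 5.59 in Vermentino and 5.78 in Moscato bianco, all below the lowest value at Soft. The Moscato bianco value at Soft was 2.52-fold above the next cultivar, as its chromosome 12 PSY was also highest at that stage.

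The chromosome 10 NCED fell from Pea to Touch by 1.48 (log2 change -1.48, SE 0.25, adjusted p = 0.000371), the only call of the 10 genes at that step. It fell from Soft to Harv by 1.23 (log2 change -1.23, SE 0.25, adjusted p = 0.00148). In between, the log2 change from Touch to Soft was 0.87 (SE 0.25, 95% interval 0.34 to 1.40, adjusted p = 0.00722), higher in 5 of 5 cultivars and above the change of 95.6% of all rows, but under the 2-fold limit. It was called with equal medians (1.34, adjusted p = 0.000372), with the other 2 scalings and without Garganega (1.06, adjusted p = 0.00538). The cultivars differed in size at this step, from 1.07-fold in Garganega to 3.08-fold in Vermentino and 4.29-fold in Moscato bianco. Because the course was not one-way, the change from green to ripe was -0.49 (SE 0.17, adjusted p = 0.0191), and it turned to 0.045 with equal medians.

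Together the NCED genes stood at 51.5 ± 18.5 FPKM at Pea, 26.0 ± 9.4 at Touch, 23.1 ± 7.3 at Soft and 5.96 ± 1.87 at Harv. As for PSY, the sum depends on the scale of the columns. The chromosome 19 gene held 62.7% ± 11.1 of this sum at Pea and 76.6% ± 5.7 at Touch. At Soft it held 13.2% in Moscato bianco, 29.7% in Vermentino, 41.7% in Passerina, 65.8% in Glera and 74.4% in Garganega, and at Harv 25.7% ± 15.9. Its ratio to the chromosome 10 gene was lower at Soft than at Touch, and at Harv than at Soft, in 5 of 5 cultivars (log2 changes -2.13 ± 1.70 and -1.33 ± 1.42, exact permutation p = 0.0625 each, adjusted 0.0769).

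Within a labelled stage the cultivars differed in their position between Pea and Harv over the 20823 other rows tested. Such a position does not separate the progress of ripening from lasting differences in expression between cultivars. Each column was given a position between the others' average Pea values (0%) and their average Harv values (100%). Garganega lay at 14.5% at Touch and 66.3% at Soft, the lowest of the 5 both times. Moscato bianco lay at 34.8% at Touch, the highest, and at 79.0% at Soft, where Passerina was highest at 79.6%. At Harv the positions were 92.9% in Passerina, 93.9% in Garganega, 100.5% in Glera, 101.5% in Vermentino and 102.0% in Moscato bianco. At Soft, Garganega had the lowest value of both CCD4 genes, ZDS, PDS, CCD1 and all 3 synthases, and the highest chromosome 19 NCED. Moscato bianco had the highest CCD4 g00930, chromosome 4 and chromosome 12 PSY and chromosome 10 NCED there, and the lowest chromosome 19 NCED. These include genes that rose with ripening, such as CCD4 g00930, and the chromosome 4 PSY, which fell with it. Passerina had neither the highest nor the lowest value of any of the genes at Soft. The part of ripening position in these differences was not tested.

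For the most abundant gene of each role, the row outside the 10 genes with the most similar profile was sought by Pearson r of log2(FPKM + 1) over the 20 columns, among 17944 rows. The columns share stages and cultivars, so r describes likeness and has no test. The chromosome 4 PSY was most like VIT_03s0180g00110 (r = 0.98), and 955 rows reached an r of 0.9 with it. ZDS was most like VIT_14s0060g01990 (r = 0.96), with 35 such rows. For the chromosome 19 NCED it was VIT_08s0007g01300 (r = 0.95), with 233 such rows. CCD1 had 0 such rows, and its closest was VIT_15s0046g00870 (r = 0.87), a row of at most 7.36 FPKM.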

How the data were processed

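The authors deposited 1 table of FPKM with 20 columns, each their mean for 1 cultivar at 1 stage, per the file headers. Libraries were non-directional, per the labels' protocols, so overlapping or antisense genes are not separated, and reads of close paralogs may be split between them. The submitters' processing notes name TopHat2 2.0.6 and Cufflinks 2.0.2. The sources used here name neither a genome build nor an annotation. Depth is unknown. Summed FPKM ran from 770169 to 1062816. Columns were matched to groups by name, and 0 were left over. Of the 10 identifiers, 0 matched a RefSeq gene table (ASM3070453v1), so sequences, coordinates and further pathway genes are not given here.

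The 20833 rows that reached 1 FPKM in any column were fitted with limma 3.58.1 in R 4.3.3 (trend, log2(FPKM + 1), stage and cultivar as terms, 12 residual degrees of freedom), two-sided, after the script was tested on simulated data. Pseudocount, filter, scaling, test and design were varied, and each cultivar was left out in turn. The p-values set a change against how unevenly cultivars changed over all 4 stages, and do not use the spread between libraries. Each gene has 1 such spread, moderated across rows and shared by the steps. A step that was even across cultivars can therefore have a high p. The chromosome 4 PSY changed by 0.11 to 0.18 from Pea to Touch, with a limma adjusted p of 0.552. Intervals are 95%. The members, lists and tests were chosen with earlier results of these data known. All 10 members are named, with the rows next to the CCD4 pair and the closest profile for each role. The rows near CCD1 and the ratio tests were added after values were seen.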

Additional observations from a re-analysis of the deposited data

Results flagged for a closer look

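A cultivar stood far from the other 4 in 8 of 70 sets of 5 values (40 levels and 30 changes between adjacent stages, on the log2(FPKM + 1) scale). About 3.5 would be flagged in 70 independent normal sets. Levels and changes share values here, so the 8 cannot be read as an excess. For CCD1 in Garganega, the log2 change from Pea to Touch was -2.03 and from Soft to Harv 1.68, against -0.13 to 0.58 and -0.66 to -0.29 in the others. CCD4 g00910 stood at 6.66 FPKM in Glera at Soft, against 0.546 to 1.28 elsewhere. The chromosome 4 PSY stood at 29.0 FPKM in Garganega at Touch, against 37.7 to 40.9. ZDS stood at 36.0 FPKM in Glera at Pea, against 28.0 to 29.6, and its log2 change from Pea to Touch was 0.59 in Moscato bianco, against 0.34 to 0.40. The chromosome 6 PSY changed by -0.31 from Pea to Touch and by 0.60 from Touch to Soft in Vermentino, against 0 to 0.09 and -0.12 to 0.04 in the others, with 0.296 FPKM at Pea, 0.0457 at Touch and 0.587 at Soft.

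Some cultivars moved in opposite directions by at least 0.5 on that scale, and the difference between them was not tested, since each has 1 value at a stage. CCD1 changed from Pea to Touch by 0.58 in Glera, 0.58 in Passerina and -2.03 in Garganega, and from Soft to Harv by 1.68 in Garganega, -0.66 in Glera and -0.61 in Moscato bianco. CCD4 g00910 changed from Touch to Soft by 0.51 in Glera, -0.54 in Passerina, -0.78 in Vermentino and -1.06 in Moscato bianco. The chromosome 19 NCED changed from Pea to Touch by 0.59 in Garganega, -0.95 in Glera, -1.15 in Moscato bianco and -1.4995 in Vermentino.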

How the results depend on the processing

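Of 40 changes (10 genes, 4 comparisons), 15 were called, 6 of them in every alternative, and 0 of the 15 changed direction in any. Among all rows tested, 7.91%, 18.8% and 7.2% were called in either direction at the single steps in order of stage, and 26% between green and ripe berries. How often calls of other rows held in every alternative or kept their direction was not counted. Whether the calls of the 10 genes held more often than those of other rows was therefore not tested. The number of genes called from Pea to Touch was 1, but 2 with a pseudocount of 0.1, 0 in a test against a 2-fold change, and 1 to 2 with 1 cultivar left out. From Soft to Harv it was 5, but 3 with a pseudocount of 5 and 0 in a test against a 2-fold change. Without Vermentino 2 genes rose and 2 fell at that step. From Touch to Soft it was 4, but 2 in the test against 2-fold. It was 3 there with a pseudocount of 0.1 or 5, without a filter and with quantile normalization. At the same step 3 genes rose and 2 fell without Garganega, and 2 rose and 1 fell without Vermentino, Moscato bianco or Passerina. Directions that turned were all of changes without a call. With equal medians CCD1 changed by 0.12 from Touch to Soft, 0.077 from Soft to Harv and 0.087 from green to ripe, and the chromosome 10 NCED by 0.045 from green to ripe. Quantile normalization gave CCD1 0.0014 from Soft to Harv, the chromosome 10 NCED 0.052 from green to ripe, CCD4 g00910 0.14 from Touch to Soft, and the chromosome 12 and 6 PSY -0.00028 and 0.049 from Pea to Touch. Scaling by the sum without the 100 most abundant rows gave CCD1 0.033 from Soft to Harv and the chromosome 12 PSY -0.022 from Pea to Touch. With 1 cultivar left out, the chromosome 12 PSY changed by -0.042 to 0.089 and the chromosome 6 PSY by -0.065 to 0.035 from Pea to Touch, the latter by -0.017 to 0.16 from Touch to Soft, and CCD1 by -0.39 to 0.27 from Pea to Touch and -0.47 to 0.12 from Soft to Harv. The cause was not tested. A pseudocount of 5 also ended the calls of the chromosome 4 PSY (-0.85) and the chromosome 10 NCED (-0.83) from Soft to Harv and of CCD4 g00910 from green to ripe (0.98). With a filter of 5 FPKM the chromosome 6 PSY was not tested. Over all rows, 445 rose and 1203 fell from Pea to Touch, against 675 and 1859 with a pseudocount of 0.1, 260 and 520 with 5, and 66 and 285 in the test against 2-fold. The 748 rising and 3170 falling rows from Touch to Soft became 1397 and 1760 with equal medians, 1170 and 1755 under quantile scaling, 513 and 1596 with a pseudocount of 5, and 310 and 1207 against 2-fold. From Soft to Harv 428 and 1073 became 753 and 2051 with a pseudocount of 0.1, 195 and 468 with 5, and 29 and 138 against 2-fold. The 994 and 4431 from green to ripe became 2262 and 2710 with equal medians, 1944 and 2659 under quantile scaling, 665 and 2378 with a pseudocount of 5, and 582 and 2889 against 2-fold. No paired analysis was possible because the table holds group means and no single libraries whose replicate numbers could form a block. The cultivar is a term of the model, and without it 1, 4, 5 and 5 of the 10 genes were called in the 4 comparisons in turn, as many as with it. Low genes have unknown depth, so levels under 1 FPKM carry little precision.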
